A study of Rattus norvegicus with 47 samples.

Results

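The antioxidant enzymes described here are the products of 6 of the 4737 genes that the array names by 1 symbol: Gsr, Sod1, Sod2, Cat, Gpx1 and Hmox1. They were chosen by name, with earlier results of these data known. Every probe set that the platform annotation gives to 1 of these symbols alone was taken. This gave 15 of the 8799 probe sets on the array: 3 each for Gsr, Sod1, Cat and Gpx1, 2 for Hmox1 and 1 for Sod2. A probe set is a group of short oligonucleotides designed to read a transcript, though some may read more than 1. Its deposited signal is a brightness on a linear scale. Of the 15, 14 were above the floor of 185.8 signal units on at least 7 arrays and were tested. The Gpx1 probe set M21210_i_at was above it on 1 of 47 arrays and was not tested.

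Total RNA of rat brain was measured after an injury on 47 oligonucleotide arrays in 6 groups. These were ipsilateral (7 arrays) and contralateral (9) hippocampus, read from "HC" in the labels and sampled at 4 h only, ipsilateral (8) and contralateral (8) cortex at 24 h, and ipsilateral (7) and contralateral (8) cortex at 4 h. The labels do not separate injured from sham-operated animals, and they state no kind of injury, strain, sex or age, so a side difference is not a difference between injured and uninjured tissue. No label ties an array to an animal, and the p-values therefore reflect spread among arrays that may be technical. The tissue is bulk, in which fewer cells of a type and less RNA per cell cannot be told apart.

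Superoxide dismutases turn superoxide into hydrogen peroxide, Sod1 in the cytosol and Sod2 in the mitochondrial matrix. Catalase (Cat), a peroxisomal enzyme, and glutathione peroxidase 1 (Gpx1) break hydrogen peroxide down, the second with electrons from glutathione that glutathione reductase (Gsr) restores with NADPH. Haem oxygenase 1 (Hmox1) splits haem into biliverdin, iron and carbon monoxide, and in brain it is known as a stress-induced enzyme of microglia, macrophages and other glia.

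Arrays of a group correlated at 0.944 to 0.985 in log2 signal over the 7503 tested probe sets. Hippocampal arrays carried their region's markers: of 8 genes on that list, 6 passed as higher and 1 as lower in hippocampus than in cortex on the ipsilateral side, and 4 and 1 on the contralateral side. Array quality moved with some comparisons. The 10th percentile of signal was 44 ± 6.9 in ipsilateral hippocampus (SD, n = 7) and 64.8 ± 16 in contralateral hippocampus (n = 9), with an exact two-sided permutation p of 0.00253, or 0.0106 after adjustment over 21 such tests. The log2 ratio of the 3′ to the 5′ Gapdh control, which grows as RNA is shorter or less fully copied, averaged 0.119 in ipsilateral cortex at 24 h against 0.252 at 4 h, and 0.106 in contralateral cortex at 24 h against 0.274 at 4 h (adjusted exact permutation p = 0.02 and 0.00326). The same ratio averaged 0.118 in contralateral hippocampus and 0.274 in contralateral cortex (adjusted exact permutation p = 0.00259).

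In cortex at 24 h relative to 4 h, 1 of the 3 Cat probe sets was higher and 1 Gsr probe set was lower on both sides, and 1 Gpx1 probe set was higher on the ipsilateral side. The ipsilateral Gsr call was lost under 6 of 9 other settings. Cat was higher in hippocampus than in cortex by 2 probe sets on the ipsilateral side and by 1 on the contralateral side. The largest side differences in cortex were those of Hmox1, of which no probe set passed and whose ipsilateral arrays spread widely. In limma's moderated test, with p-values adjusted over all 7503 probe sets and a threshold of 0.05, none of the 14 members passed between the sides of the cortex at 4 h, where 0% of all probe sets did, and 2 were below an unadjusted p of 0.05, as were 558 of all. At 24 h none passed either, against 0.107% of all probe sets (0.0933% higher and 0.0133% lower), with 3 members and 575 of all below 0.05 unadjusted. Between the sides of the hippocampus 2 members passed, 1 higher and 1 lower, which is 14.3% of the members against 16.1% of all probe sets (5.32% higher and 10.8% lower).

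With time, 3 members passed in ipsilateral cortex, 2 higher and 1 lower at 24 h, or 21.4% against 19.3% of all probe sets (11.4% higher and 7.92% lower). In contralateral cortex 2 passed, 1 in each direction, or 14.3% against 21.5% (13.2% higher and 8.25% lower). Between hippocampus and cortex at 4 h, 2 members passed as higher and none as lower on the ipsilateral side, 14.3% against 27.5% (16.7% higher and 10.8% lower). On the contralateral side 3 were higher and 2 lower, 35.7% against 33.7% (22.3% higher and 11.4% lower). The shares lay near or below those of all probe sets, so the counts are not read as particular to these enzymes.

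The change of the cortical side difference between 4 h and 24 h was tested directly, and 0 of 14 members passed, against 0% of all probe sets; 0 members and 421 of all probe sets were below 0.05 unadjusted. The side difference in hippocampus minus that in cortex at 4 h passed for 1 member, a lower one, or 7.14% of the members against 4.18% of all (1.08% higher and 3.11% lower).

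**Figure D1:**
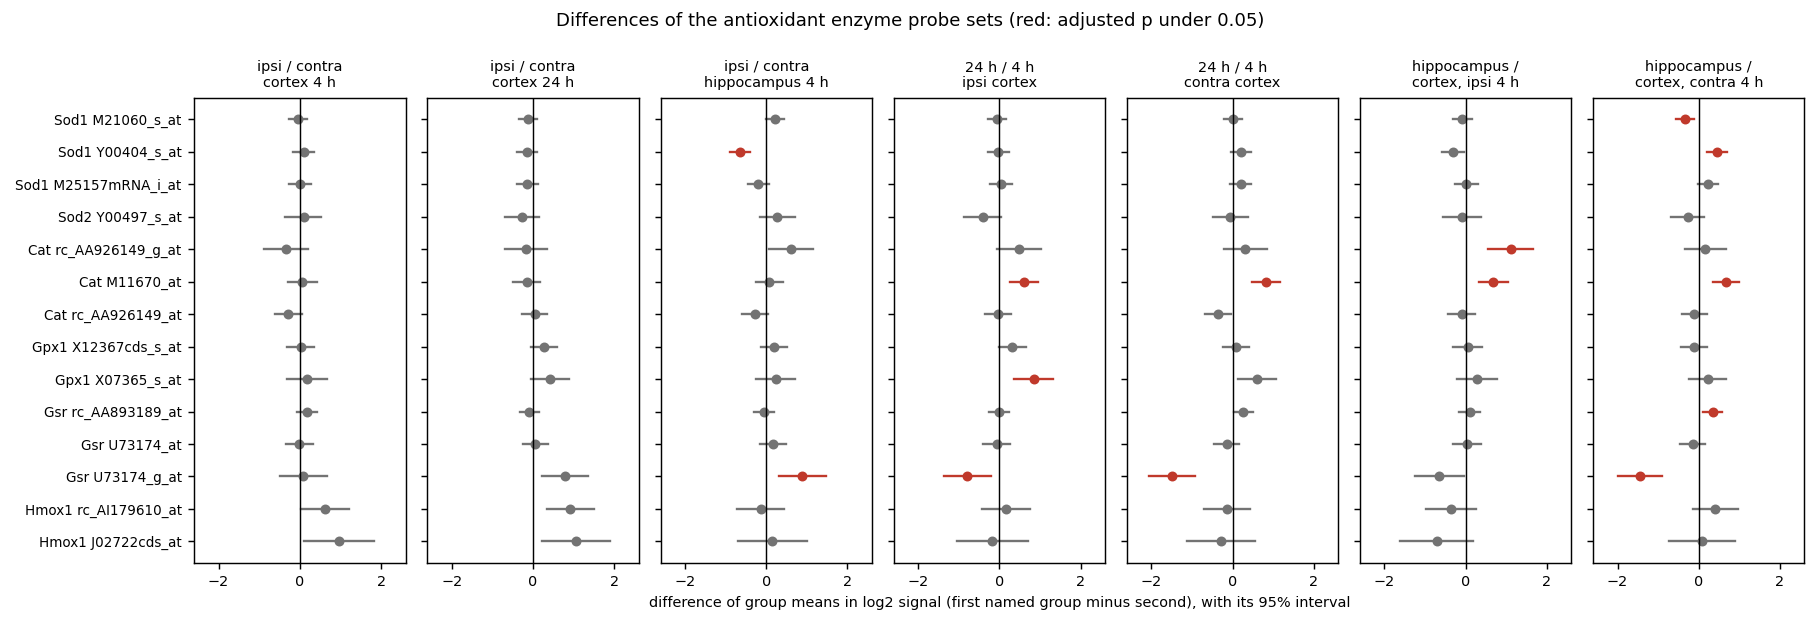
Differences in log2 signal of the 14 tested probe sets (rows) in 7 comparisons (panels), each as the first named group minus the second, with 95% intervals from limma and red for an adjusted p under 0.05. The 2 Hmox1 probe sets lie to the right of 0 in both cortical side comparisons without passing, and Cat M11670_at passes in both time and both region comparisons.

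Sod1, the cytosolic dismutase, was read by 3 probe sets that gave different answers. In hippocampus, Y00404_s_at had a lowest, median and highest signal of 7661, 9561 and 11221 on the ipsilateral side, against 10657, 15036 and 18350 on the contralateral side. All 7 ipsilateral arrays were below the contralateral median and 4 were below every contralateral array, though the ranges overlapped. The ipsilateral side was lower by a log2 difference of -0.65 (SE 0.13), a 1.57-fold difference with a limma adjusted p of 0.000729.

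The other 2 Sod1 probe sets did not pass there. M21060_s_at read 12857, 15012 and 16375 in ipsilateral hippocampus against 10511, 12663 and 14776 in contralateral hippocampus, a difference of 0.22 with the opposite sign (SE 0.11, limma adjusted p = 0.166), and M25157mRNA_i_at differed by -0.20 (SE 0.13, adjusted p = 0.289). The Y00404_s_at difference moved with the 10th percentile of signal given above. With that percentile as a covariate it was -0.32 (adjusted p = 0.307).

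In cortex at 4 h Y00404_s_at showed no such gap, with 9700, 11920 and 13411 on the ipsilateral and 6317, 12333 and 13910 on the contralateral side (log2 difference 0.09, limma adjusted p = 0.931). The hippocampal minus the cortical side difference was -0.74 (SE 0.18, limma adjusted p = 0.0154), and -0.41 with the covariate (adjusted p = 0.313). At 24 h all 3 Sod1 probe sets were slightly lower in ipsilateral than in contralateral cortex, by -0.12 to -0.15 on the log2 scale, and none passed. M25157mRNA_i_at was below the contralateral median on all 8 ipsilateral arrays at that time.

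Between contralateral hippocampus and contralateral cortex at 4 h, 2 Sod1 probe sets passed in opposite directions. M21060_s_at fell by 0.35 on the log2 scale (SE 0.11, limma adjusted p = 0.00913), with all 9 hippocampal arrays below the cortical median of 15848. Y00404_s_at was higher in hippocampus by 0.44 (SE 0.12, adjusted p = 0.00337), with 7 of 9 arrays above every cortical array. With the beta-actin 3′ to 5′ ratio as a covariate these values were -0.30 (adjusted p = 0.13) and 0.16 (adjusted p = 0.482). That ratio averaged 0.292 in contralateral hippocampus and 0.584 in contralateral cortex (log2, adjusted exact permutation p = 0.00259).

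Within groups, after each group's mean was taken off, M21060_s_at and Y00404_s_at correlated at -0.11 over the 47 arrays, M21060_s_at and M25157mRNA_i_at at 0.076, and Y00404_s_at and M25157mRNA_i_at at 0.37. No direction for Sod1 RNA as a whole follows from probe sets that differ in this way.

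**Figure D2:**
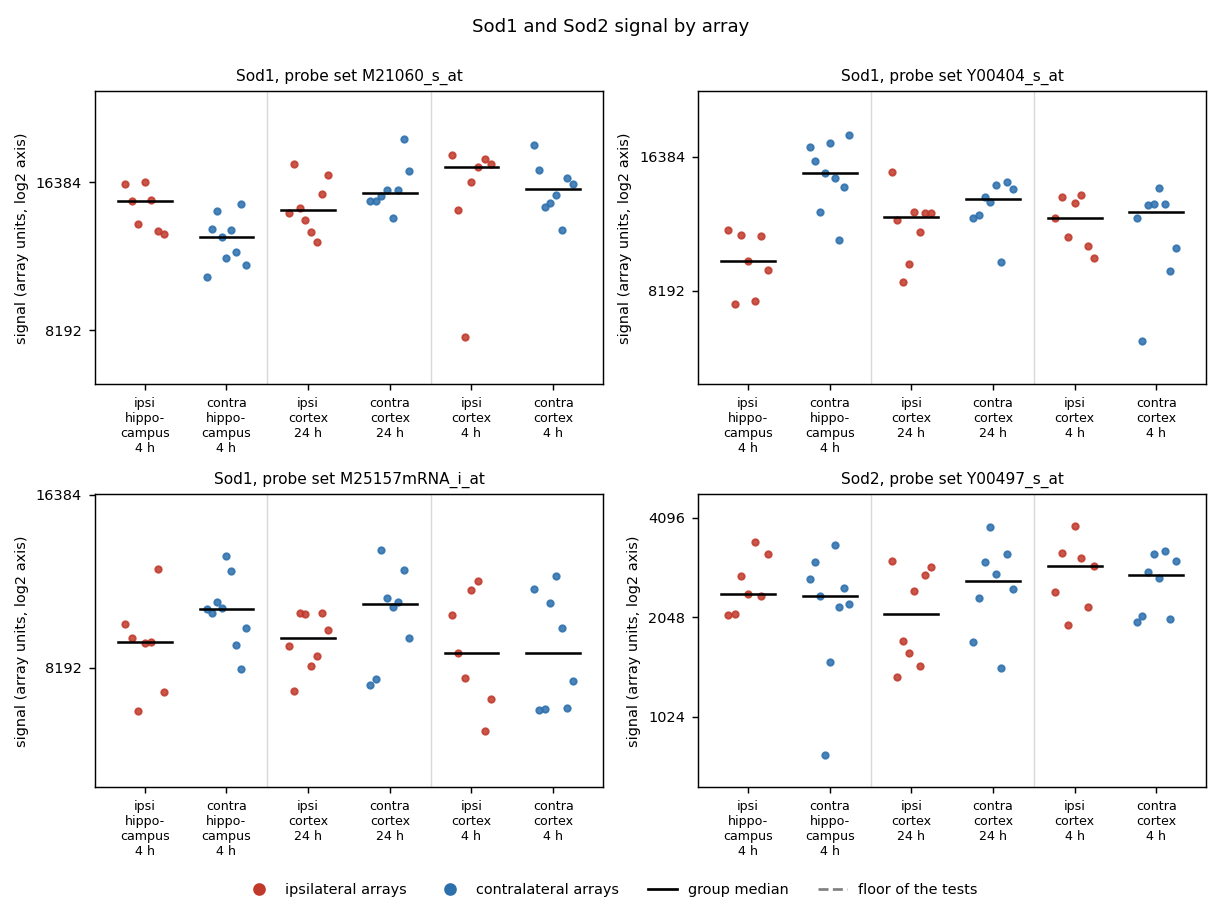
Signal of the 3 Sod1 probe sets and the Sod2 probe set on every array (points, 1 per array, log2 axis), with group medians as black bars. Y00404_s_at is low in ipsilateral hippocampus (7661 to 11221) beside contralateral hippocampus (10657 to 18350), a gap that M21060_s_at does not show.

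Sod2, the mitochondrial dismutase, passed the threshold in none of the 9 comparisons. Y00497_s_at read 1346, 2091 and 3029 in ipsilateral cortex at 24 h against 1442, 2631 and 3842 in contralateral cortex, a log2 difference of -0.27 with a 95% interval of -0.70 to 0.15 (limma adjusted p = 0.846). Against ipsilateral cortex at 4 h, where it read 1942, 2928 and 3854, the 24 h group differed by -0.41 (SE 0.22, adjusted p = 0.195), and 7 of its 8 arrays were below the 4 h median. In contralateral hippocampus its arrays ran from 784 to 3395, the widest spread of the 6 groups on the log2 scale (SD 0.64).

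Catalase was higher at the later time on both sides of the cortex by 1 of its 3 probe sets, M11670_at. This probe set read 671, 836 and 968 in ipsilateral cortex at 24 h against 485, 525 and 596 at 4 h. Every 24 h array was above every 4 h array, and the share of all probe sets that did so was not computed. The log2 difference was 0.61 (SE 0.17), or 1.53-fold, with a limma adjusted p of 0.00911.

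In contralateral cortex M11670_at read 615, 1019 and 1250 at 24 h against 318, 546 and 753 at 4 h. All 8 later arrays were above the earlier median and 6 were above every earlier array. The difference was 0.83 (SE 0.17), or 1.77-fold (limma adjusted p = 2.61e-04). Gapdh 3′ to 5′ ratios were lower at 24 h, as given above. With that ratio as a covariate the differences were 0.31 (adjusted p = 0.321) on the ipsilateral and 0.45 (adjusted p = 0.149) on the contralateral side. Under quantile normalization the ipsilateral one was 0.52 (adjusted p = 0.0551). The brighter probe set rc_AA926149_g_at did not pass with time, with differences of 0.48 (SE 0.27, limma adjusted p = 0.222) on the ipsilateral and 0.32 (SE 0.26, adjusted p = 0.422) on the contralateral side. The dim rc_AA926149_at differed by -0.04 (SE 0.16, adjusted p = 0.914) and -0.36 (SE 0.16, adjusted p = 0.0997).

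Catalase was also higher in hippocampus than in cortex at 4 h, by 2 probe sets on the ipsilateral side and 1 on the contralateral side. In ipsilateral hippocampus M11670_at read 525, 893 and 1177, above every array of ipsilateral cortex on 6 of 7 arrays, with a difference of 0.68 (SE 0.18, limma adjusted p = 0.00305). The brighter probe set rc_AA926149_g_at read 929, 1483 and 2205 there against 269, 717 and 1278 in ipsilateral cortex, and differed by 1.11 (SE 0.28, limma adjusted p = 0.00192), or 2.16-fold. Both passed under each of the 9 other settings tried and without any single array of the compared groups.

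On the contralateral side M11670_at read 636, 872 and 964 in hippocampus, all 9 arrays above the median of 546 in cortex, and differed by 0.66 (SE 0.16, limma adjusted p = 0.0013). This difference was 0.44 under quantile normalization (adjusted p = 0.0647) and 0.31 with the Gapdh ratio as a covariate (adjusted p = 0.225). rc_AA926149_g_at did not pass there (0.16, SE 0.25, adjusted p = 0.661). The third Cat probe set, rc_AA926149_at, was at the floor on 36 of 47 arrays. No Cat probe set differed past the threshold between the sides of any tissue. The M11670_at differences were 0.06, -0.16 and 0.08 in cortex at 4 h, cortex at 24 h and hippocampus, with a 95% interval of -0.50 to 0.18 for cortex at 24 h. Those of rc_AA926149_g_at were -0.34 (SE 0.27, limma adjusted p = 0.825), -0.17 (SE 0.26, adjusted p = 0.964) and 0.61 (SE 0.26, unadjusted p = 0.0244, adjusted p = 0.101), with a 95% interval of 0.08 to 1.14 in hippocampus. Its hippocampal minus its cortical side difference at 4 h was 0.95 (SE 0.38, unadjusted p = 0.0154, limma adjusted p = 0.132).

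Because Cat and Gpx1 both had a probe set that rose with time in ipsilateral cortex, their upstream sequences are shown. RefSeq's promoter table holds 4 of the 6 genes. The 250 bases before each annotated start, on the gene's own strand, build GRCr8, are chr3:110329527-110329776, minus strand, for Cat and chr8:117905212-117905461, plus strand, for Gpx1. Capitals mark matches on either strand to 6 short motifs: the antioxidant response element core TGACNNNGC, the AP-1 site TGACTCA, the CCAAT box CCAAT, the Sp1 box GGGCGG, the E-box CACGTG and the heat shock element pair GAANNTTC.
Cat: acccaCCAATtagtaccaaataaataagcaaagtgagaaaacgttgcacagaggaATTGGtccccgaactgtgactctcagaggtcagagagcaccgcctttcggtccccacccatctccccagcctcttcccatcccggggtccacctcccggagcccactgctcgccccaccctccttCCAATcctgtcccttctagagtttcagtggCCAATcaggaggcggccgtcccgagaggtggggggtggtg
Gpx1: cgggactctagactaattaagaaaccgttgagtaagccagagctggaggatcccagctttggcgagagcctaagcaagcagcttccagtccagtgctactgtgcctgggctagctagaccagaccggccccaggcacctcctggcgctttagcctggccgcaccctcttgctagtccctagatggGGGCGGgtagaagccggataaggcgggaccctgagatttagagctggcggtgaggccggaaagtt
The Cat window holds 4 CCAAT boxes, which begin 245, 195, 70 and 40 bases before the start, 1 of them on the opposite strand. The Gpx1 window holds 1 Sp1 box, 65 bases before the start. The Sod1 and Sod2 windows were scanned likewise and are not shown. That of Sod2 holds an antioxidant response element core, 35 bases before the start, and an Sp1 box. That of Sod1 holds a CCAAT box, an Sp1 box and a heat shock element pair. Of 33469 rat windows of the same length, 34% hold a CCAAT box, 30.5% an Sp1 box, 10.1% the antioxidant response element core, 7.23% the heat shock pair, 5.59% the E-box and 4.05% the AP-1 site. A match is a run of letters, not a shown binding site, and the motifs that did not match are missing from these windows alone.

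**Figure D3:**
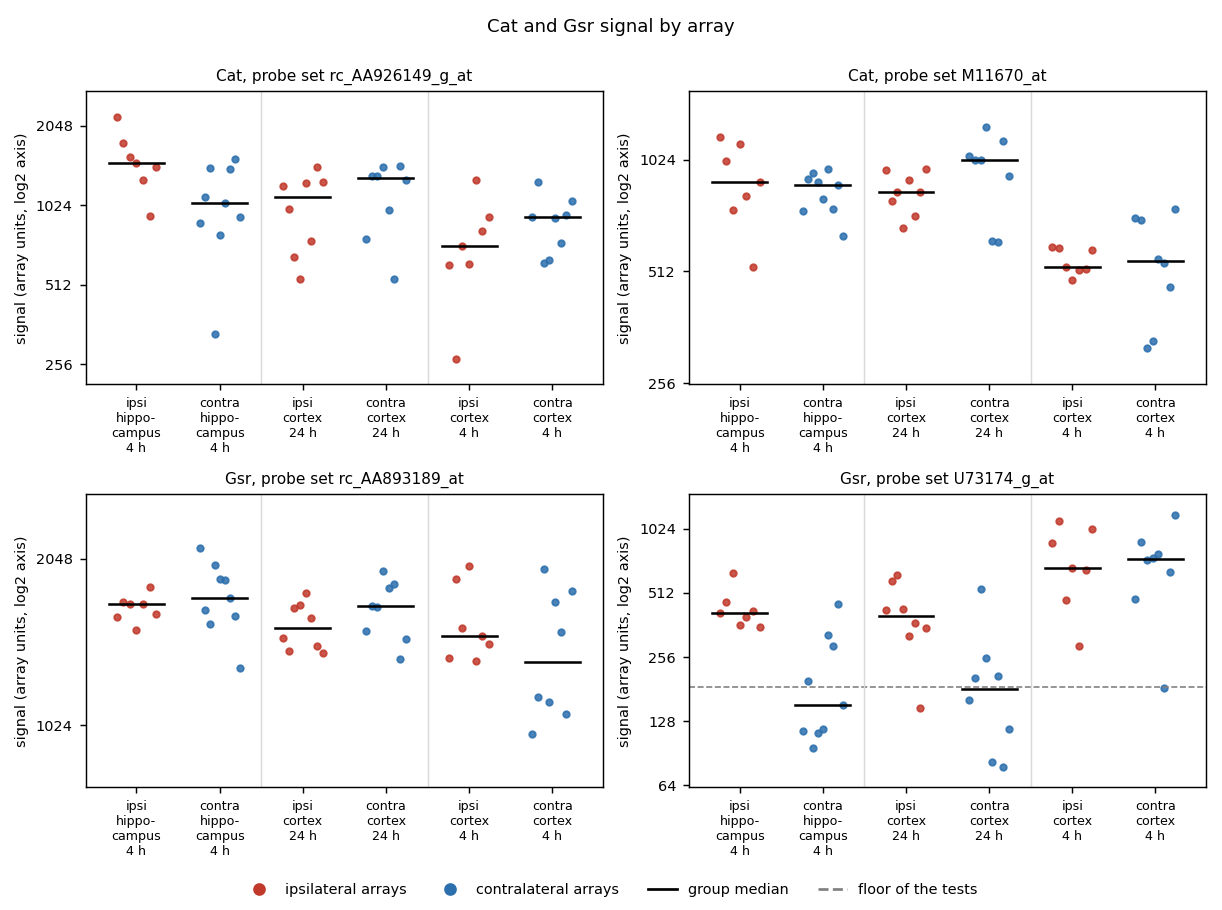
Signal of 2 Cat and 2 Gsr probe sets on every array (points, log2 axis), with group medians as black bars and the floor of 185.8 as a dashed line. Cat M11670_at is lowest in the 4 h cortex groups, and Gsr U73174_g_at is lowest in contralateral cortex at 24 h and contralateral hippocampus.

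Gpx1, the cytosolic glutathione peroxidase, was higher at 24 h than at 4 h in ipsilateral cortex by 1 of its 2 tested probe sets. X07365_s_at read 3050, 5527 and 9027 at 24 h against 1686, 3077 and 3500 at 4 h, with 6 of 8 later arrays above every earlier one. The log2 difference was 0.85 (SE 0.24), or 1.80-fold (limma adjusted p = 0.00874), and 0.57 with the Gapdh ratio as a covariate (adjusted p = 0.19). X12367cds_s_at differed by 0.32 (SE 0.17, adjusted p = 0.181). In contralateral cortex X07365_s_at differed by 0.60 with time (SE 0.23, adjusted p = 0.0577).

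The ipsilateral arrays at 24 h did not behave as 1 cluster for Gpx1. On arrays 33, 34, 35 and 36 X12367cds_s_at read 7043, 6658, 6505 and 5911, and on arrays 37, 38, 39 and 40 it read 12529, 10764, 15197 and 12900. Contralateral cortex at 24 h ran from 6189 to 12653 with a median of 7201. X07365_s_at read 3806, 4064, 3087 and 3050 on the first 4 of these ipsilateral arrays and 7251, 6991, 9027 and 7145 on the other 4. The side differences at 24 h were 0.26 (SE 0.16, limma adjusted p = 0.785) for X12367cds_s_at and 0.42 (SE 0.23, adjusted p = 0.732) for X07365_s_at. The labels give no difference between arrays 33 to 36 and 37 to 40, and no test was made between them.

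The group means of Gsr, which restores glutathione, spanned 0.34 and 0.16 on the log2 scale by 2 probe sets and 1.57 by the other. The brightest, rc_AA893189_at, had group medians between 1333 and 1736. It passed in 1 comparison, contralateral hippocampus against contralateral cortex, where it read 1300, 1736 and 2141 against 989, 1333 and 1965 and differed by 0.34 (SE 0.12, limma adjusted p = 0.0197). That call was lost under 3 of 9 other settings. Among them were quantile normalization (0.15, adjusted p = 0.348) and the beta-actin ratio as a covariate (0.29, adjusted p = 0.177). It was also lost without array 9 or array 15 of contralateral cortex. U73174_at passed in none of the 9 comparisons, and its group means spanned 0.16 on the log2 scale. Its arrays spread more widely within ipsilateral cortex at 4 h, from 472 to 1701 (log2 SD 0.59).

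U73174_g_at, a dimmer Gsr probe set at the floor on 11 of 47 arrays, passed in 4 comparisons. In contralateral cortex it read 78.2, 181 and 533 at 24 h against 184, 739 and 1191 at 4 h. All 8 later arrays were below the earlier median, and 4 were at the floor, which makes the fold smaller than in the unfloored signal. The log2 difference was -1.49 (SE 0.28, limma adjusted p = 9.94e-05). In ipsilateral cortex it read 147, 397 and 623 at 24 h against 288, 669 and 1119 at 4 h and fell by 0.79 (SE 0.29, adjusted p = 0.0471). That call was lost under 6 of 9 other settings (limma adjusted p up to 0.151) and in 11 of 15 single-array omissions. Between the sides of the cortex at 24 h it was higher ipsilaterally by 0.78 without passing (SE 0.28, limma unadjusted p = 0.00752, adjusted p = 0.389). There 7 of 8 ipsilateral arrays were above the contralateral median.

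The same probe set was higher in ipsilateral hippocampus, at 355, 414 and 638, than in contralateral hippocampus, at 95.5, 152 and 455. All 7 ipsilateral arrays were above the contralateral median, 2 were above every contralateral array, and 5 of the 9 contralateral arrays were at the floor. The difference was 0.89 (SE 0.28, limma adjusted p = 0.0262). It was 0.44 once the 10th percentile was a covariate (adjusted p = 0.683), 0.80 with the beta-actin ratio (adjusted p = 0.0966) and 0.79 without array 19 of ipsilateral hippocampus (adjusted p = 0.0663). Contralateral hippocampus was lower than contralateral cortex by -1.45 (SE 0.27, adjusted p = 3.61e-05). Over the 47 arrays U73174_g_at correlated within groups at 0.17 with rc_AA893189_at and at 0.20 with U73174_at, so the 3 Gsr probe sets did not track each other.

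Hmox1 had the largest side differences among the members in cortex at both times, and neither probe set passed. At 4 h rc_AI179610_at read 794, 3152 and 4191 in ipsilateral cortex against 1034, 1447 and 2605 in contralateral cortex. On ipsilateral arrays 1, 3 and 4 it read 794, 1854 and 1390, and on arrays 5, 6, 7 and 8 it read 4191, 3417, 3152 and 3966. The last 4 were above every contralateral array, and array 1 was below every one. The log2 difference was 0.62 with a 95% interval of 0.02 to 1.21 (limma adjusted p = 0.665).

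At 24 h rc_AI179610_at read 1204, 3048 and 5228 in ipsilateral cortex against 1013, 1297 and 2073 in contralateral cortex. On arrays 33 to 40, in order, the ipsilateral signals were 1387, 1204, 2595, 1550, 3839, 4356, 3501 and 5228, and 5 of the 8 were above every contralateral array. The difference was 0.91, or 1.88-fold, with a 95% interval of 0.34 to 1.49 (SE 0.29, unadjusted p = 0.00245, limma adjusted p = 0.279).

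The second Hmox1 probe set, J02722cds_at, gave the same picture in cortex. It read 321, 744 and 1209 in ipsilateral cortex at 4 h against 68.6, 367 and 727 in contralateral cortex, a difference of 0.95 (SE 0.43, limma adjusted p = 0.627), with 3 of the 8 contralateral arrays at the floor. At 24 h it read 89.3, 755 and 2275 against 170, 270 and 376, a difference of 1.06 (SE 0.42, adjusted p = 0.487), with 5 of 8 ipsilateral arrays above every contralateral one. The adjusted p of rc_AI179610_at at 24 h ran from 0.054 to 0.353 over 9 other settings and from 0.105 to 0.612 over 16 single-array omissions. The 2 probe sets correlated within groups at 0.78.

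In hippocampus Hmox1 showed no side difference past the threshold. rc_AI179610_at read 1212, 1561 and 3221 on the ipsilateral side against 1402, 2039 and 3311 on the contralateral side, a log2 difference of -0.14 with a 95% interval of -0.72 to 0.43 (limma adjusted p = 0.765). J02722cds_at differed there by 0.15, with the opposite sign (SE 0.42, limma adjusted p = 0.832). The hippocampal minus the cortical side difference at 4 h was -0.76 for rc_AI179610_at (SE 0.41, adjusted p = 0.285). For J02722cds_at it was -0.80 (SE 0.60, adjusted p = 0.466), so the regions were not shown to differ.

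**Figure D4:**
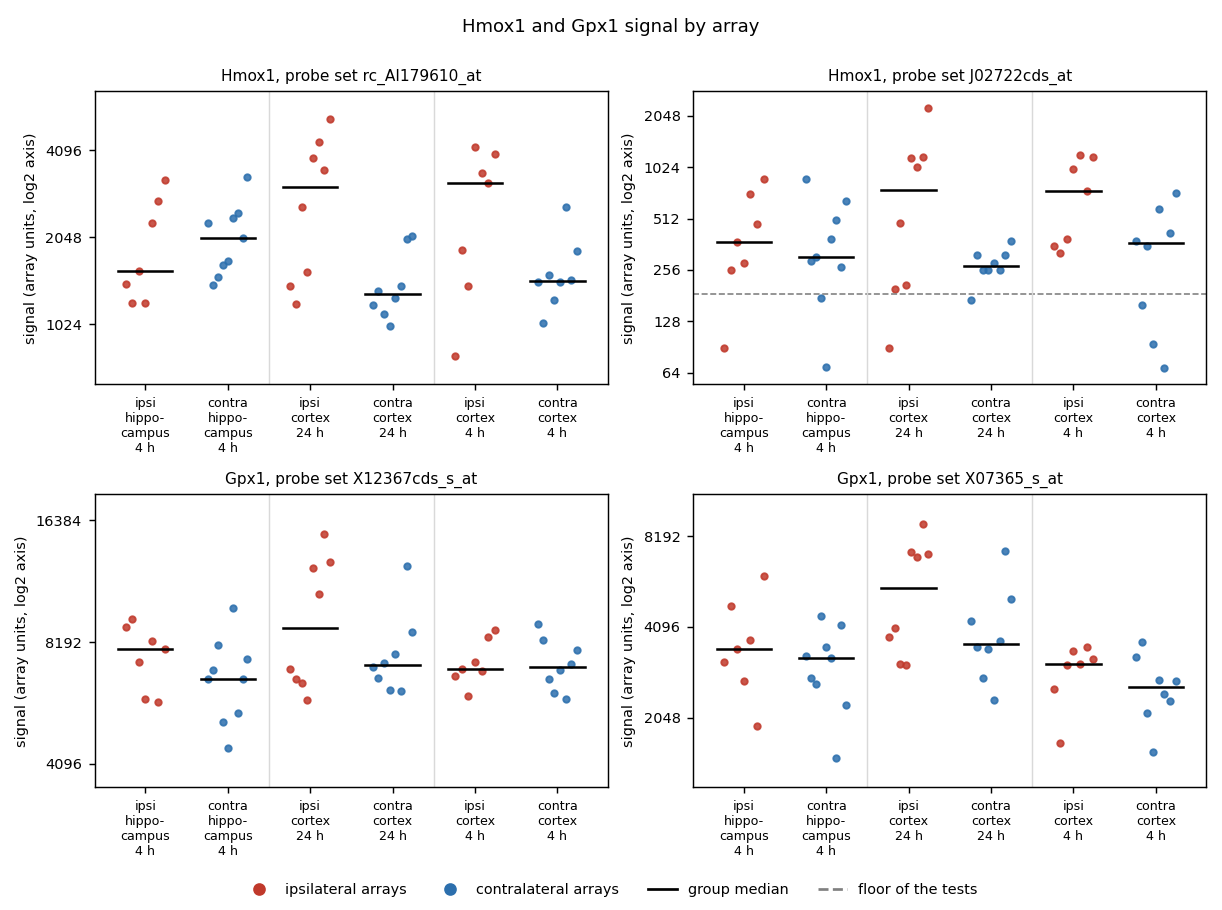
Signal of 2 Hmox1 and 2 Gpx1 probe sets on every array (points, in array order within a group, log2 axis), with group medians as black bars. In ipsilateral cortex at 24 h the 4 highest Hmox1 rc_AI179610_at signals, 3501 to 5228, are on the same arrays as the 4 highest Gpx1 X12367cds_s_at signals, 10764 to 15197.

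Markers of microglia and macrophages moved with these arrays. The summed signal of the 13 tested genes of that list was 31517, 32048, 32668 and 32786 on ipsilateral arrays 33 to 36 and 50569, 59631, 47479 and 48037 on arrays 37 to 40, while contralateral cortex at 24 h ran from 29682 to 39316. At 4 h the sums were 33159, 36449 and 36588 on ipsilateral arrays 1, 3 and 4 and 38437, 42884, 38751 and 38918 on arrays 5 to 8, against 30882 to 39078 in contralateral cortex. By the list's mean log2 signal these 2 sets of ipsilateral arrays overlapped, with array 3 (10.01) above array 7 (9.94). In hippocampus they ran from 29478 to 39528 on the ipsilateral and from 29201 to 36943 on the contralateral side. No tested gene of the list was at the floor throughout; the least often detected, Itgam and Cd74, were above it on 16 and 20 of 47 arrays.

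Of the 13, only Spp1 (osteopontin), named after its value was seen, passed between the sides of the cortex at 24 h (log2 difference 2.59, SE 0.58, limma adjusted p = 0.0498). No probe set passed that comparison without the filter on dim probe sets, with the compared groups alone or without array 37. The Spp1 call was lost in each, and its signal was above the floor on 31 of 47 arrays. The list's median side difference in cortex at 24 h was 0.36 against -0.02 over all genes. Over the 47 arrays, which share 1 scaling, the list's mean log2 signal correlated within groups with Hmox1 rc_AI179610_at at r = 0.76 (rho = 0.77) and with Gpx1 X12367cds_s_at at r = 0.47 (rho = 0.39). The part of these cells in the Hmox1 and Gpx1 values was not tested.

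Red blood cell markers, 4 genes, summed to 50479, 76544 and 80893 on ipsilateral cortex arrays 1, 3 and 4 at 4 h and to 160555, 92783, 109934 and 123026 on arrays 5 to 8, against 54778 to 84193 in contralateral cortex. In mean log2 signal, which the correlations use, array 6 (13.07) was below arrays 3 and 4 (13.16 and 13.18). At 24 h they ran from 68411 to 96999 in ipsilateral and from 75938 to 105835 in contralateral cortex, and arrays 37 to 40 lay between 85526 and 94958. None of the 4 passed between the sides of the cortex at either time. The list correlated within groups with Hmox1 at r = 0.56 (rho = 0.51), and its part was not tested. For the other marker lists the within-group r with Hmox1 rc_AI179610_at ran from -0.42 (oligodendrocyte markers) to 0.43 (astrocyte markers). With Gpx1 X12367cds_s_at, microglia and macrophage markers aside, the r ran from -0.31 (hippocampus markers) to 0.27 (astrocyte markers). The parts of these lists were not tested either.

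**Figure D5:**
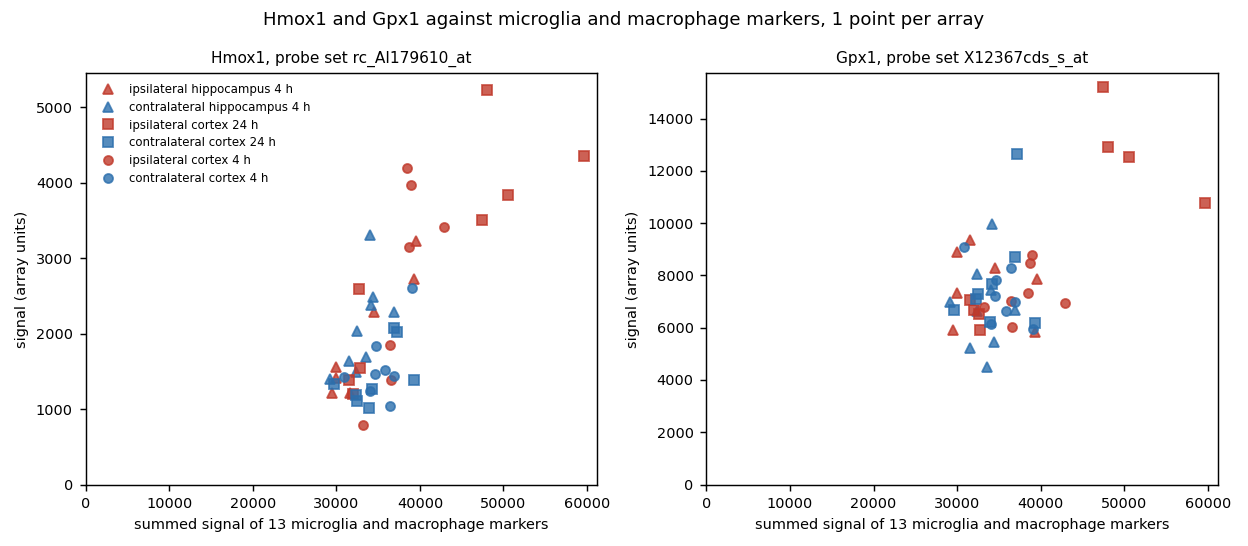
Signal of Hmox1 rc_AI179610_at (left) and Gpx1 X12367cds_s_at (right) against the summed signal of 13 microglia and macrophage markers, 1 point per array, coloured by side and shaped by region and time. The 4 arrays with sums from 47479 to 59631 are all ipsilateral cortex at 24 h and have Hmox1 signals of 3501 to 5228 and Gpx1 signals of 10764 to 15197.

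Ordered by level, the 6 groups formed steps that were mostly within the spread. Of the 70 steps between neighbouring groups over the 14 probe sets, 2 passed. Over all probe sets and all pairs of groups 19.7% of tests passed, but neighbours are the pairs with the closest means, so the counts are not alike and nothing is read from their difference. For Cat M11670_at the 4 h cortex groups stood below the other 4: the step between contralateral hippocampus and ipsilateral cortex at 4 h was 0.61 (SE 0.17, limma adjusted p = 0.00476). Its order, from the highest mean log2 signal, was contralateral cortex at 24 h (9.86), ipsilateral hippocampus (9.77), ipsilateral cortex at 24 h (9.70), contralateral hippocampus (9.69), ipsilateral cortex at 4 h (9.09) and contralateral cortex at 4 h (9.03). Gsr U73174_g_at had its step between ipsilateral cortex at 24 h (8.60) and contralateral hippocampus (7.85), of 0.75 (SE 0.27, adjusted p = 0.0369), with the 4 h cortex groups and ipsilateral hippocampus above it. For Hmox1 rc_AI179610_at the order was ipsilateral cortex at 24 h (11.34), ipsilateral cortex at 4 h (11.18), contralateral hippocampus (10.97), ipsilateral hippocampus (10.83), contralateral cortex at 4 h (10.57) and contralateral cortex at 24 h (10.43), and no neighbours differed past the threshold.

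The genes whose log2 signal was most like each member over the 47 arrays, group means taken off, are given with Pearson's r as a description. Hmox1 was most like Lgals3 (galectin-3, also on the microglia and macrophage list; 0.82), Ifitm3 (0.796) and Timp1, an inhibitor of matrix metalloproteinases (0.785). Gpx1 was most like Vim, the filament protein vimentin (0.771), Pcna, the DNA polymerase clamp (0.693), and Arpc1b, an actin-branching subunit (0.678). Vim is also on the astrocyte marker list. Cat was most like Hspd1, a mitochondrial chaperonin (0.84), and Canx, an endoplasmic reticulum chaperone (0.804). Sod2 was most like Ndufb9 and Cyc1, both of the respiratory chain (0.801 and 0.748), and Cyb5a (0.792). Sod1 was most like Psmb2, a proteasome subunit (0.795), which was 0.63 without the 2 arrays farthest from the median, where Ndufa6, a respiratory chain subunit, had 0.749 against 0.661 over all arrays. Gsr was most like Ucp1 (0.67). Among the members themselves, each by its brightest probe set, within-group r ran from -0.39 for Gsr and Cat to 0.48 for Cat and Gpx1, and was 0.44 for Gpx1 and Hmox1.

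Further genes of oxidant handling were followed through 7 lists, in which 89 genes were tested, each by its brightest probe set. None passed between the sides of the cortex at 4 h or at 24 h in limma. In hippocampus 1 rose and 8 fell on the ipsilateral side, against 5.32% higher and 10.8% lower of all probe sets, with a median difference of -0.04, the same as over all probe sets. The largest falls were those of Uox, the peroxisomal urate oxidase (-1.04, SE 0.31, adjusted p = 0.0193), Nos1, the neuronal nitric oxide synthase (-0.79, SE 0.19, adjusted p = 0.00504), Ephx2, a soluble epoxide hydrolase (-0.61, SE 0.20, adjusted p = 0.0309), and Prdx3, the mitochondrial peroxiredoxin (-0.37, SE 0.11, adjusted p = 0.0242). The 1 that rose, Aco1, named after its value was seen, is the cytosolic aconitase that also serves as an iron sensor (0.22, SE 0.072, adjusted p = 0.0307). These differences moved with the arrays' 10th percentile of signal, which was lower in ipsilateral hippocampus. With it as a covariate none of the 89 passed, and the differences were -0.75 for Uox (limma adjusted p = 0.483), -0.27 for Nos1 (0.653), -0.06 for Ephx2 (0.944), -0.16 for Prdx3 (0.726) and 0.08 for Aco1 (0.78). With the beta-actin ratio 0 rose and 2 fell, and of the 5 named genes Nos1 alone still passed.

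With time, 7 of the 89 rose and 14 fell in ipsilateral cortex (median -0.03 against 0.03 over all probe sets), where 11.4% of all probe sets rose and 7.92% fell. In contralateral cortex 10 rose and 11 fell (median -0.02 against 0.04), where 13.2% of all rose and 8.25% fell. With the Gapdh ratio as a covariate 4 rose and 8 fell ipsilaterally, and 4 rose and 7 fell contralaterally. Selenop, a selenium carrier protein, rose on both sides, by 0.88 (SE 0.16) ipsilaterally and 0.74 (SE 0.15) contralaterally (limma adjusted p = 5.56e-05 and 2.62e-04). Tfrc, the transferrin receptor, rose by 0.80 (SE 0.19) and 0.94 (SE 0.19) (adjusted p = 0.00211 and 1.85e-04). Selenow, a small selenoprotein, fell by 0.67 (SE 0.067) and 0.61 (SE 0.065) (adjusted p = 1.36e-09 and 3.21e-09). The iron exporter Slc40a1 rose in ipsilateral cortex by 0.94 (SE 0.20, adjusted p = 6.96e-04), and Ptgs2, an inducible cyclooxygenase, rose in contralateral cortex by 0.67 (SE 0.24, adjusted p = 0.033). Tfrc on both sides and Ptgs2 did not pass with the Gapdh ratio (limma adjusted p = 0.0794 and 0.0587 for Tfrc, 0.373 for Ptgs2).

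Between hippocampus and cortex at 4 h, 16 of the 89 were higher and 15 lower on the ipsilateral side, and 20 higher and 14 lower on the contralateral side. Of all probe sets 27.5% passed on the ipsilateral side (16.7% higher and 10.8% lower) and 33.7% on the contralateral side (22.3% higher and 11.4% lower). The medians of the 89 were -0.02 and 0.09. With the Gapdh ratio 11 were higher and 12 lower on the contralateral side. On the ipsilateral side the largest were Hpx, the haem carrier hemopexin (-0.79, SE 0.27, limma adjusted p = 0.0253), Selenow (-0.77, SE 0.069, adjusted p = 2.26e-12), Ireb2, an iron regulatory protein (0.76, SE 0.11, adjusted p = 1.58e-07), and Mgst1, a membrane glutathione transferase (0.76, SE 0.30, adjusted p = 0.0488). On the contralateral side they were Uox (1.15, SE 0.30, adjusted p = 0.0022), Mgst1 (0.99, SE 0.27, adjusted p = 0.00367), Gss, glutathione synthetase (0.79, SE 0.18, adjusted p = 7.16e-04), and Cp, the ferroxidase ceruloplasmin (0.74, SE 0.30, adjusted p = 0.0486). Hpx did not pass with the 10th percentile as a covariate (limma adjusted p = 0.305), and neither Mgst1 (0.513 ipsilaterally and 0.271 contralaterally) nor, contralaterally, Uox (0.0895), Gss (0.177) and Cp (0.721) did with the beta-actin ratio. Of the 19 tested genes of the glutathione list, 5 were higher and 1 lower in ipsilateral hippocampus, and 7 higher and 1 lower in contralateral hippocampus, with medians of 0.15 and 0.18 against 0.01 and 0.12 over all genes. Of the 14 tested mitochondrial enzymes, 1 was higher and 5 lower in ipsilateral hippocampus, and 1 higher and 7 lower in contralateral hippocampus, with medians of -0.14 and -0.22. The other 5 lists had 1 to 3 higher and 1 to 4 lower on the ipsilateral side, and 2 to 3 higher and 0 to 2 lower on the contralateral side. The 1 lower glutathione gene on both sides was Gpx4, named after its values were seen, the glutathione peroxidase that reduces lipid peroxides (-0.34, SE 0.078, and -0.46, SE 0.071).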

How the data were processed

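The deposited values are 1 signal intensity per probe set and array on a linear scale; how the authors summarised and scaled them is not given in the sources used here. Trimmed of 2%, the mean signal of every array lay between 2503 and 2504, and no further scaling was done. Signals under the 25th percentile of all values (185.8) were set to it before log2. Probe sets above this floor on at least 7 arrays, without 59 control probe sets, were tested (7503). Symbols came from the platform annotation, updated by gene ID; a gene in a list is represented by its brightest probe set on average.

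All 47 arrays entered 1 linear model of 6 group means (R 4.3.3, limma 3.58.1, version 1.17.8 of the package data.table; eBayes with an intensity trend, two-sided, Benjamini-Hochberg over 7503 probe sets within each of 9 comparisons, threshold 0.05). Of the list genes, up to 4 with the largest differences past the threshold were named per comparison; exceptions are said. Array quality was compared with exact permutation tests. Array 23 breaks its side's run of numbers and was kept as labelled. The procedure was tested on simulated data. The members and lists were chosen with earlier results of these data known. The number of arrays limits the precision. Alternatives were another floor, a pseudocount of 50, no filter, quantile normalization, the compared groups alone, array weights, 3 quality covariates and leaving out each array; the Gapdh and beta-actin covariates, and all settings for the list genes, were chosen after seeing the data. Promoter sequences are RefSeq's (GRCr8).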

Additional observations from a re-analysis of the deposited data

Results flagged for a closer look

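In 66 groups of arrays (11 probe sets over 6 groups), 4 had 1 array far from the others by Dixon's criterion, and chance gives about 1 in 20. Sod1 M21060_s_at read 7950 on array 4 of ipsilateral cortex at 4 h, where the other arrays ran from 14418 to 18611. Cat rc_AA926149_g_at read 333 on array 27 of contralateral hippocampus, against 787 to 1526 on the others. Gsr U73174_g_at read 533 on array 43 of contralateral cortex at 24 h, against 78.2 to 254. Sod1 Y00404_s_at read 9510 on array 46 of contralateral cortex at 24 h, against 11944 to 14332.

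The side difference of Sod1 Y00404_s_at differed between hippocampus and cortex at 4 h by -0.74 on the log2 scale, tested as an interaction in limma (adjusted p = 0.0154), and the other 2 Sod1 probe sets did not pass that test (0.27, adjusted p = 0.336, and -0.20, adjusted p = 0.553).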

How the results depend on the processing

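Counts of members past the threshold moved as follows. With a 10th-percentile covariate, 0 members in place of 2 passed between the sides of the hippocampus, 0 in place of 1 in the difference between the regions, and 5 in place of 2 with time in contralateral cortex, where Sod1 M25157mRNA_i_at and Y00404_s_at and Gsr rc_AA893189_at were gained. With the Gapdh 3′ to 5′ ratio, 0 in place of 3 passed with time in ipsilateral cortex and 1 in place of 2 in contralateral cortex. With the beta-actin ratio, 1 passed between the sides of the hippocampus and 3 in place of 5 between regions on the contralateral side; quantile normalization also left 3 there. Leaving out single arrays gave 1 to 2 between the sides of the hippocampus, the 1 without array 19. Of 636 values of 25 followed differences, 4 changed sign, all between the sides of the hippocampus and none past the threshold: Hmox1 rc_AI179610_at (0.16 with the 10th percentile, 0 with the beta-actin ratio), Hmox1 J02722cds_at (-0.04 to 0.34 without single arrays, the lowest without array 24) and Sod1 M25157mRNA_i_at (0.12 with the 10th percentile). The causes were not tested. Over all probe sets, the side difference in hippocampus passed for 1207, for 1881 with array weights, 432 with the beta-actin ratio, 5 with the 10th percentile and 799 without array 21. The difference between the regions passed for 314, for 64 with the compared groups alone, 1 with the 10th percentile, 135 without array 5 and 508 without array 14. Time differences passed for 1450 and 1612, and for 737 and 601 with the Gapdh ratio; the contralateral region difference for 2530, and for 1533 with the beta-actin ratio. In cortex the side difference passed for 0 to 5 at 4 h and 0 to 38 at 24 h over all settings (0 without array 37 and 26 without array 33 at 24 h), and its change with time for 0 to 2. No paired analysis was possible because no sample number is shared between groups. Dim probe sets are limited by the floor, and Gsr U73174_g_at, at it on 11 arrays, most among those that passed.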
